A study of Mus musculus and synthetic RNA with 74 samples.

Results

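The 32 genes described here encode histone lysine methyltransferases and their close relatives, and were chosen by symbol: a gene was a member if its name was on a list of SET-domain genes plus Dot1l and it had a row in both gene-level tables, and all 32 did, out of 19639 genes listed in both. Methyltransferases of this kind move a methyl group from S-adenosylmethionine (SAM) onto lysines of the histone tails, or of the histone core in the case of Dot1l. Methylation of H3K4 and H3K36 is found at active promoters, enhancers and gene bodies, whereas methylation of H3K9 and H3K27 is found in heterochromatin and at silenced developmental genes. In the preimplantation embryo the marks inherited from the gametes are rebuilt while the trophectoderm separates from the inner cell mass. Those that are active methyltransferases draw on the SAM made by MAT2A, whose mRNA is a methylation target of METTL16, the RNA methyltransferase that the study removed.

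Single mouse embryos from crosses of heterozygous Mettl16 parents were sequenced with the Smart-seq2 protocol. The allele carries a triple-stop cassette in exon 3, made in B6D2F1/J embryos and crossed to C57BL/6JRj, and the females were superovulated. The E2.5 group (morulae) held 5 wild-type (WT), 14 heterozygous (HET) and 12 knockout (KO) embryos, and the E3.5 group (blastocysts) held 18 WT, 9 HET and 12 KO embryos. Genotypes were called by the study from the Mettl16 reads themselves, and all embryos of a genotype came from 1 targeted line. A second experiment incubated recombinant METTL16 with a pool of synthetic 30-nucleotide RNAs, all with the same central nonamer, and sequenced 2 input and 2 m6A-immunoprecipitated (m6A-IP) libraries.

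The embryo tables give, for each gene, exon and intron, the authors' mean normalized count over all 31 embryos of E2.5 or all 39 of E3.5. They hold no value per embryo that could be used here, so these levels carry no standard deviation, no test between the stages and no comparison of genotypes, and the depth of each embryo was not used here. A mean could rest on a few embryos. The stages were normalized separately and mix the genotypes in different proportions, and stage and genotype mixture cannot be told apart in a ratio of the means. Between stages a gene is therefore given as its share of its own table's total in ppm (parts per 1000000), the totals being 23557112 mean normalized counts at E2.5 and 27145016 at E3.5. In whole embryos, fewer cells with a transcript and less of it in each cell cannot be told apart. Embryo identity genes were present: the 6 trophectoderm markers summed to 8067 mean normalized counts at E2.5 and 83383 at E3.5, the 5 pluripotency markers to 11573 and 14337 and the 4 primitive endoderm markers to 5003 and 5678. Tfap2c made up most of the trophectoderm sum at E2.5 (5278), and Krt8 and Krt18 most of it at E3.5 (30838 and 35173). As shares, 5 trophectoderm markers were at least 2-fold higher at E3.5 and 1 lower. The counts were 3 and 1 for pluripotency and 2 and 1 for primitive endoderm. Among 14120 genes with a mean of at least 10 at either stage, 35.3% were at least 2-fold higher and 19.5% at least 2-fold lower. The 3 granulosa and cumulus markers listed at both stages summed to 1.77 and 2.60, and the 3 blood markers to 50.2 and 14.5, nearly all of it Hba-a1. Mettl16 itself had a mean of 778 at E2.5 and 669 at E3.5 over all genotypes.

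The nonamer of the randomized RNA pool, TACAGAGAA in DNA letters, was searched for on the transcribed strand of the 32 genes, because it is the sequence that METTL16 methylates, at the fourth base, in Mat2a and in U6. It occurred 62 times, in 24 of the 32 genes (75.0%, against 35.7% of 24467 genes), and only 4 of the 62 matches lay in an exon. The sequences below are from GRCm38 (mm10), each with 11 bases before and 10 bases after the nonamer, which is the length of the synthetic RNAs, and the capitals mark the nonamer. The first 4 are those in mature transcripts.

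Kmt2c exon 20, coding, chr5:25354360-25354389, minus strand: gctgtcggaacTACAGAGAAgaggacctca
Smyd4 exon 3, coding, chr11:75382315-75382344, plus strand: ctcccctcttcTACAGAGAAgaaggaaaca
Smyd4 exon 11, 3′ untranslated, chr11:75405279-75405308, plus strand: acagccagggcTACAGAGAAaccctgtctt
Setd7 exon 8, 3′ untranslated, chr3:51520024-51520053, minus strand: aattgcagaagTACAGAGAAaaccccatta

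The next 4 are intronic. The first of them is the commonest window, and the other 3 are shown because their predicted folds stood at the ends of the range in the in vitro assay.

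Kmt2a intron 1, chr9:44871173-44871202, minus strand: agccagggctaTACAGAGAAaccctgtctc
Setd2 intron 13, chr9:110591438-110591467, plus strand: acccagggctgTACAGAGAAactctttctc
Smyd3 intron 8, chr1:179063625-179063654, minus strand: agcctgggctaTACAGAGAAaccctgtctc
Dot1l intron 15, chr10:80784290-80784319, plus strand: atagccagggtTACAGAGAAaccctgtctg

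Of the 62 matches, at least 30 lay in variants of 1 repeated sequence. The 30 bases printed for Kmt2a intron 1 occurred 10 times without a difference, in introns of Kmt2a, Ehmt1, Ehmt2, Setdb1, Nsd1, Setd2, Ash1l, Smyd3 and Prdm14, and 30 windows in 16 genes were within 4 mismatches of it. Mismatches were counted without gaps. Windows with a similar sequence shifted by a few bases, such as Smyd4 exon 11 and Dot1l intron 15 (10 mismatches each), are therefore not among the 30. All 30 lay wholly in bases that the genome file marks as repeats, and 42 of the 62 windows had at least 50% of their bases marked. The sequence is that of the B1 short interspersed element of the mouse genome, named here from general knowledge and not from a repeat annotation. The window in the 3′ end of Smyd4 also lay wholly in marked repeat, whereas the coding windows of Kmt2c and Smyd4 and the window of Setd7 held none. Over all 24467 genes the nonamer occurred 20.8 times per megabase of gene body against 27.5 in the members. Of longest mature transcripts, 3.30% held it (Kmt2c, Smyd4 and Setd7, or 9.38%, of the members). Of the matches in all genes, 59.4% had the whole nonamer marked as repeat. The members were measured otherwise, with 67.7% of windows having at least 50% of their bases marked, so these percentages cannot be compared directly. The members are long genes, which bears on the share of genes with a match, and the 9 windows of Smyd3 lay in a gene body of 563 kb. Kmt2d, Setd1a, Suv39h1, Setdb2, Smyd2, Smyd5, Setd4 and Setd6 had no match.

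Among the writers of H3K4 methylation, Kmt2c, which acts at enhancers, had the most transcript at both stages. Its mean normalized count was 7233 at E2.5 and 4323 at E3.5, whereas Kmt2d, which also acts at enhancers, was at 380 and 445. Per kilobase of exon the levels were 430 and 257 for Kmt2c against 19.1 and 22.4 for Kmt2d, the second lowest of the 32 members at E3.5. The SET1-type enzymes, which place H3K4 trimethylation at promoters, were also far below Kmt2c: Setd1a was at 578 and 562, and Setd1b at 156 and 229. The widest gap between stages in all 32 genes was that of Kmt2a, the MLL gene that keeps developmental genes active, with a mean of 11.6 at E2.5 and 1127 at E3.5, or 0.492 and 41.5 ppm, a share 84.4 times as large at E3.5. Its close relative Kmt2b, which trimethylates H3K4 in the oocyte, had means of 187 and 648, a share 3.01 times as large. Kmt2a was thus near the bottom of the members at E2.5 (0.706 per kilobase, above Setd7 alone) and above Kmt2d and Setd1b at E3.5 (68.6 per kilobase). Summed over the 6 genes, the share of the H3K4 group was 363 ppm at E2.5 and 270 at E3.5, since Kmt2c made up most of it.

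The H3K9 writers were all transcribed, with a median of 216 per kilobase at E2.5 and 237 at E3.5. Ehmt2 (G9a) and Ehmt1 (GLP), which work as a heterodimer that dimethylates H3K9, had means of 1773 and 1464 at E2.5 and of 1382 and 1181 at E3.5, so that Ehmt2 was slightly above Ehmt1 at both. Setdb1, which trimethylates H3K9 at retroviral elements together with TRIM28, was at 1040 and 1947. Suv39h1, one of the pair that trimethylates H3K9 at pericentromeric repeats, was at 694 and 805, with nearly equal shares of 29.4 and 29.6 ppm. The other of that pair, Suv39h2, was at 113 and 622, a share 4.76 times as large at E3.5. The ratio of the pair therefore differed between stages: per kilobase, Suv39h1 was at 209 and 243 and Suv39h2 at 26.5 and 145. Setdb2, a relative of Setdb1, was at 358 and 199, a share 0.483 times as large at E3.5, but 89.1% of its exon bases also belong to the annotated readthrough transcript Setdb2-phf11c, so its level is uncertain.

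Ezh2, the catalytic subunit of Polycomb repressive complex 2 in dividing cells, had a mean of 2641 at E2.5 and 3745 at E3.5. Ezh1, which takes its place in many non-dividing cells, was at 494 and 497. With 990 and 1404 per kilobase, Ezh2 ranked behind Smyd5 at E2.5 and first of the 32 members at E3.5.

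Setd2, the enzyme that trimethylates H3K36 in transcribed gene bodies, was at 6898 and 4404, close to Kmt2c in mean and in the smaller share at E3.5 (0.554 times for Setd2 and 0.519 times for Kmt2c). Nsd1, which dimethylates H3K36, was at 2065 and 3842, and Ash1l, also a writer at H3K36, at 574 and 1364, a share 2.06 times as large at E3.5. Dot1l, the writer of H3K79 methylation and the one member without a SET domain, was at 500 and 538, or 21.2 and 19.8 ppm.

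The SMYD family, in which a MYND domain is inserted into the SET domain, held both very high and very low members. Smyd5 was the highest of all 32 genes at E2.5, with a mean of 7367 (2955 per kilobase), and was at 2417 at E3.5 (969 per kilobase), a share 0.285 times as large. Smyd1, known from heart and skeletal muscle, was at 22.2 and 319, a share 12.4 times as large at E3.5. Smyd3 was at 147 and 745, a share 4.39 times as large. Smyd2, which also methylates proteins other than histones, was at 439 and 417, and Smyd4 at 91.8 and 193. The sum over the family was 342 ppm at E2.5 and 151 at E3.5 and followed Smyd5, since the other members apart from Smyd2 had larger shares at E3.5.

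Of the other SET-domain members, Setd3, an actin histidine methyltransferase, had means of 1229 and 1967 and Setd5, whose own activity on histones is disputed, of 613 and 1773, a share 2.51 times as large at E3.5. Setd6 was at 296 and 602, Kmt2e, an MLL relative with no settled enzymatic activity, at 213 and 453, and Setmar at 45.3 and 66.5. Setd4 was at 391 and 214, a share 0.474 times as large. Setd7, a monomethyltransferase for H3K4 and for other proteins, was nearly undetected, at 3.98 and 2.86, the lowest member at both stages and the only one under a mean of 10 at both. In the PRDM family, Prdm2 was at 1426 and 2041 and Prdm14, a regulator of pluripotency and of germ cell formation, at 78.7 and 126.

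**Figure D1:**
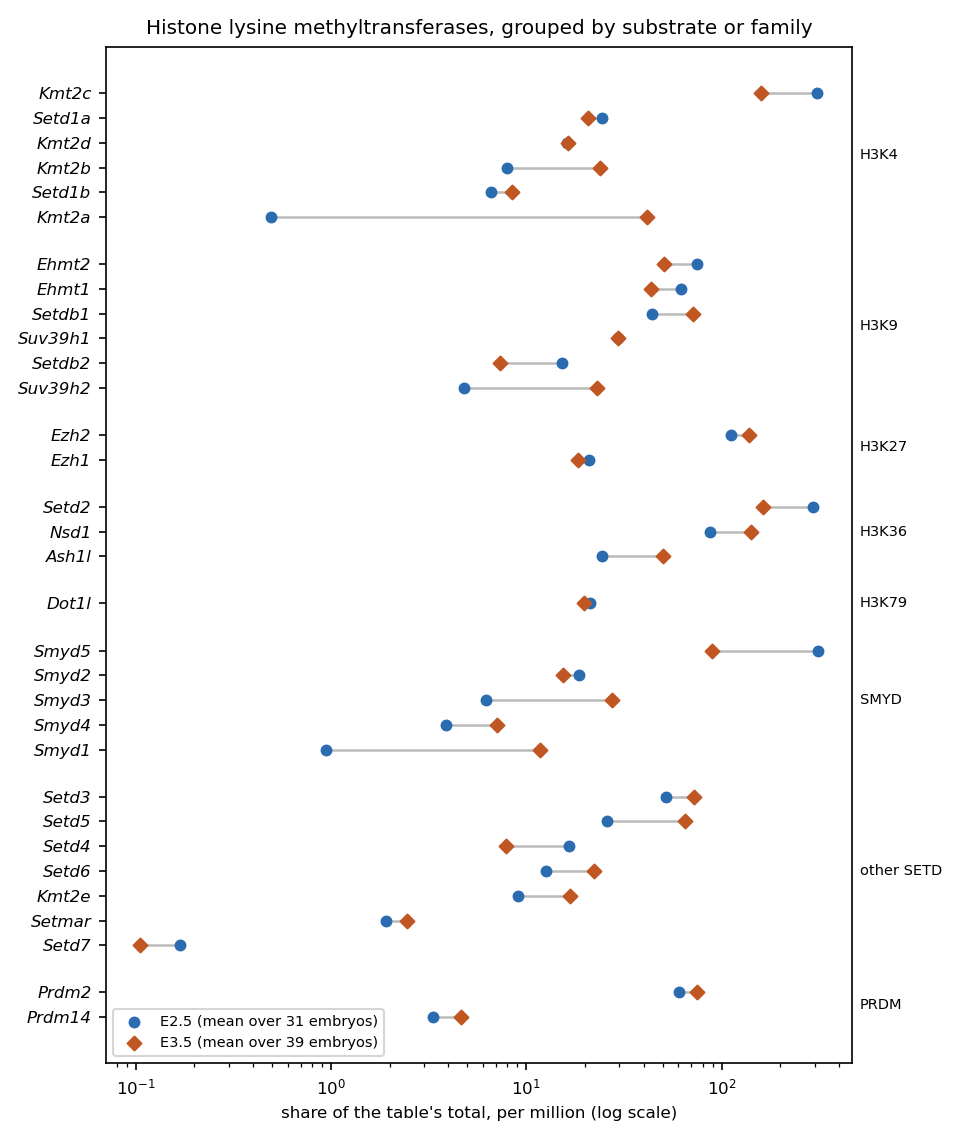
Share of each of the 32 genes in its table's total, in ppm on a log axis, as the authors' mean over 31 E2.5 embryos (circles) and 39 E3.5 embryos (diamonds), grouped by substrate or family; the means have no error. Kmt2a (0.492 and 41.5) and Smyd1 (0.944 and 11.8) show the longest lines, and Setd7 lies apart at the left.

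At E2.5, 29 of the 32 lay above the median gene of the table (a mean of 36.4) and 17 in the top 25%, and at E3.5 31 lay above the median gene (51.6) and 17 in the top 25%. The 3 below the median at E2.5 were Kmt2a, Smyd1 and Setd7, and Setd7 alone remained below it at E3.5. Among genes with a mean of at least 10, 21 members lay above the median at E2.5 and 24 at E3.5. Kmt2c, Setd2, Smyd5, Ezh2 and Nsd1 were in the top 10% at both stages. Between stages, 7 of the 31 members with a mean of at least 10 at either stage had a share at least 2-fold higher at E3.5 (Kmt2a, Smyd1, Suv39h2, Smyd3, Kmt2b, Setd5 and Ash1l), where 35.3% of 14120 such genes did. Another 3 had a share at least 2-fold lower at E3.5 (Smyd5, Setd4 and Setdb2), against 19.5% of all such genes. The remaining 21 lay between, and the median ratio was 1.27 for the members and 1.33 for all such genes. Both counts of members were thus below the background, and the median was near it. Just inside the limit were Ash1l (2.06) and Setdb2 (0.483), and just outside it Kmt2e (1.85) and Kmt2c (0.519). Scaled to the median gene, Kmt2c (0.457) and Setd2 (0.488) also passed the 2-fold limit, which made 5 lower members, and Ash1l (1.82) left the higher ones.

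**Figure D2:**
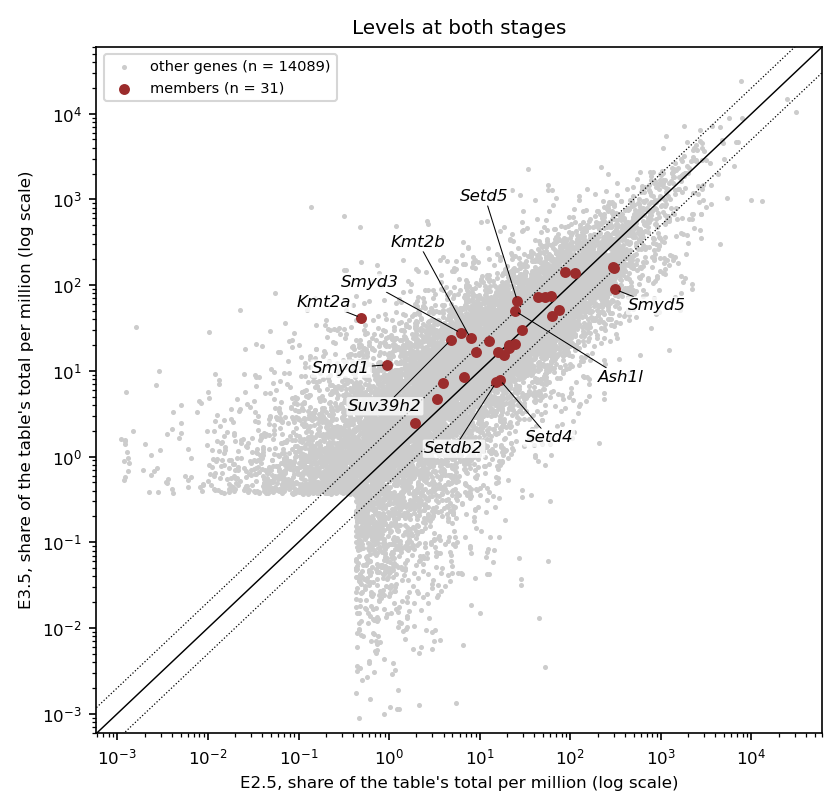
Share of each gene in ppm at E2.5 (horizontal) and E3.5 (vertical), both on log axes, for the 31 members with a mean of at least 10 at either stage (dark points) among 14120 such genes (grey); the solid line marks equal shares and the dotted lines a 2-fold difference. The 10 named members lie outside the dotted lines, Kmt2a and Smyd1 farthest above and Smyd5 farthest below.

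Reads along the genes were distributed differently at E3.5. The share of a gene's summed exon means that lay in its last exon had a median of 20.7% at E2.5 and 34.9% at E3.5 over 7679 genes with at least 3 exons and an exon sum of at least 100 at both stages, and was larger at E3.5 in 91.1% of them. The 28 members in that set went the same way, with medians of 17.7% and 28.3% and a larger share at E3.5 in 27, Ash1l (9.43% and 6.86%) being the exception. Their share of genes with a gain of over 20 points was 25.0%, against 29.3% of all genes. The part of this shift in the ratios between stages was not tested. Ash1l had a larger share of the total and a smaller last-exon share at E3.5. Kmt2a had the same, but it was below the limit for this set, and its E2.5 last-exon share rested on a summed exon mean of only 12.2.

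Smyd5 had the largest shift of the 28. Its last exon held 32.8% of the exon sum at E2.5 and 74.8% at E3.5, a gain of 42.0 points that 98.1% of the genes stayed below. The last exon, exon 13, had a mean of 4448 at E2.5 and 1873 at E3.5. Exons 1 to 12 summed to 9098 at E2.5 and 630 at E3.5. Taken as shares of the table's exon total, the last exon was 0.500 times and exons 1 to 12 were 0.0822 times as large at E3.5, so the size of the difference between stages depended on which part of the Smyd5 transcript was counted. Setd3 (22.2% and 52.7% in the last exon), Suv39h1 (46.4% and 74.4%) and Dot1l (24.4% and 48.7%) followed.

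Other members moved by amounts common in the whole table. In Ezh2, exons 1 to 7 summed to 2244 mean normalized counts at E2.5 and 698 at E3.5, whereas exons 18 to 20 summed to 974 and 2611, stretches also drawn after the values had been seen. In Setd2, Ehmt1, Ehmt2, Setd1a, Setd1b and Ezh1, among others, the last exon was a larger share of the table's exon total at E3.5. The other exons together were a smaller one. In these the ratios ran from 1.13 to 1.72 for the last exon and from 0.495 to 0.570 for the rest. Their gains in last-exon share exceeded those of 43.4% (Setd2) to 76.1% (Ezh1) of all genes. Further members had the same pattern with ratios outside 1 or both of these ranges. These were Setdb2 (1.17 and 0.555), Smyd2 (1.11 and 0.723), Kmt2d (3.81 and 0.882), Suv39h1 (1.63 and 0.488), Dot1l (1.85 and 0.627) and Setd3 (2.51 and 0.643). The last exon of Kmt2c barely moved (6.68% and 7.66%), and 1 internal exon of 1.71 kb, exon 43 of 59, held 13.8% and 22.4% of its signal. In Prdm2 the last exon, which carries most of the transcript length, held 79.9% and 82.0%.

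Kmt2a, which had the largest ratio between stages, had signal along the whole transcript at E3.5, but unevenly. Exons 3 to 11 had 122 mean normalized counts per kilobase, exons 12 to 26 had 16.2, exon 27 had 36.1 and the last exon, exon 36, had 90.3. At E2.5 no stretch was above 1.35 per kilobase. The last exon held 40.9% of the exon sum at E2.5 and 37.6% at E3.5. The stretches were drawn after the values had been seen.

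**Figure D3:**
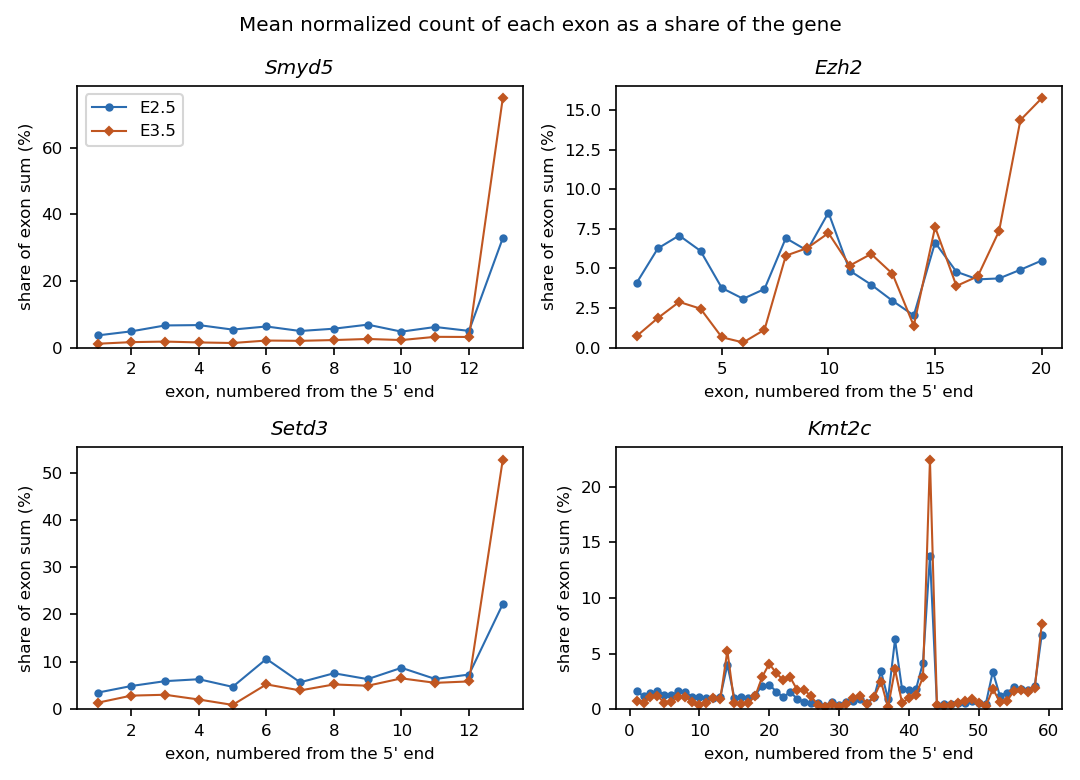
Mean normalized count of each exon of the longest transcript as a percentage of the gene's exon sum, against the exon number from the 5′ end, for Smyd5, Ezh2, Setd3 and Kmt2c at E2.5 (circles) and E3.5 (diamonds), without error since the values are the authors' means. Smyd5 exon 13 stands at 32.8% and 74.8%, whereas the last exon of Kmt2c differs little and exon 43 stands out at 13.8% and 22.4%.

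**Figure D4:**
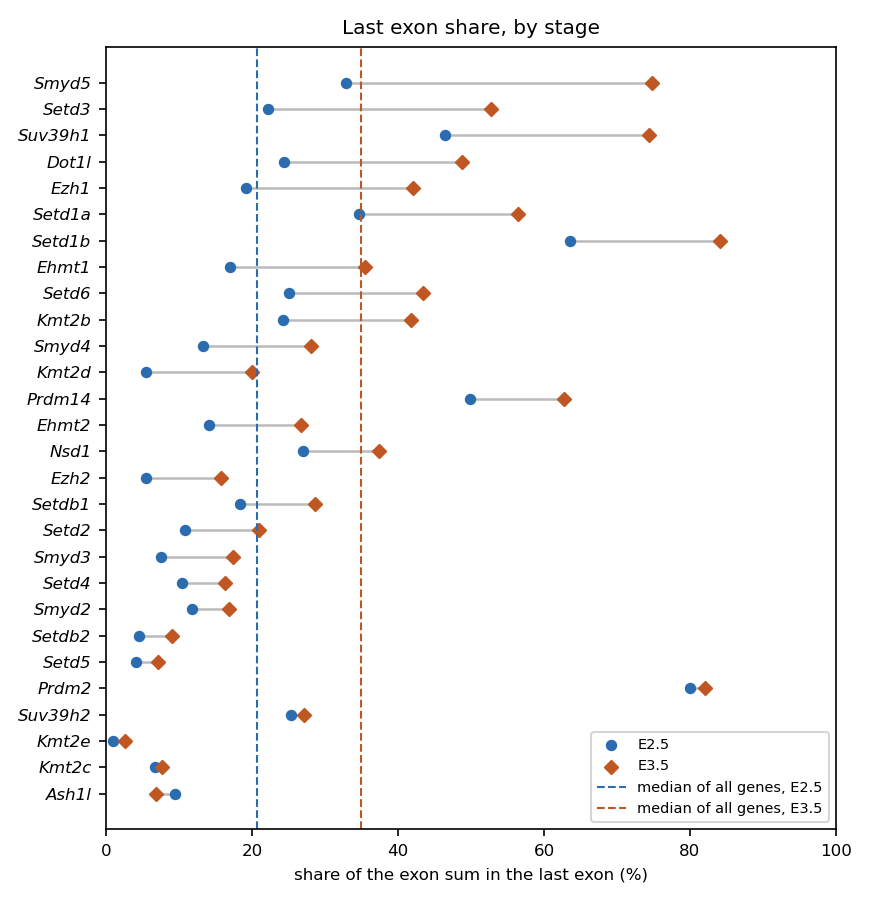
Percentage of the exon sum in the last exon at E2.5 (circles) and E3.5 (diamonds) for the 28 members with at least 3 exons and an exon sum of at least 100 at both stages, ordered by the difference; dashed lines give the medians of 7679 genes (20.7% and 34.9%). Every member but Ash1l has the larger share at E3.5.

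Intron signal was also higher at E3.5 in relation to the exons. The summed intron means were 9.38% of the exon sum at E2.5 and 21.9% at E3.5 in the median of 28 members, and 4.60% and 8.32% in the median of 7917 genes with an exon sum of at least 100 at both stages. The members carry longer introns, with a median of 34.7 kb in all against 18.9 kb. In Smyd3 introns held more than exons, 175% of the exon sum at E2.5 and 312% at E3.5, most of it in the 310880 bases of intron 5 (358 and 2845). Ash1l went from 17.2% to 46.2% and Setd1b from 9.65% to 44.7%. Of the 28, 3 ran the other way: Suv39h2 from 33.8% to 7.67%, Dot1l from 40.1% to 21.2% and Setd6 from 5.38% to 3.41%. The share of all genes that did so was not counted. The Suv39h2 values include its intron 5, which lies in an exon of Dclre1c, so they cannot be given to Suv39h2 alone.

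Of 616 introns of the members, 125 had a mean of at least 10 at both stages, and 9 of the 125 (7.2%) had at least 10% of the density of their gene's exons at both, against 13% of 20948 introns of all genes that passed the same limit. With a mean of at least 1 in place of 10 these were 13 of 324 (4.01%), against 10.2%. Of the 125, the 3 with the highest density ratio averaged over the stages, whether or not they reached 10% at both, were Suv39h2 intron 5 (chr2:3458730-3459756), with 61.0% of the exon density at E2.5 and 5.35% at E3.5, Setd5 intron 3 (chr6:113109991-113110373), with 46.6% and 17.9%, and Prdm14 intron 6 (chr1:13115882-13118762), with 17.7% and 43.1%. The whole of Suv39h2 intron 5 lies in an exon of Dclre1c on the other strand, and the libraries carry no strand, so its reads cannot be given to Suv39h2. The introns of Setd5 and Prdm14 overlap no exon of another gene. Exons of 3 members share bases with a gene on the other strand: 12.0% of those of Kmt2e with Srpk2, 4.90% of those of Suv39h2 with Dclre1c and 1.61% of those of Setdb1 with Cers2.

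In the in vitro assay each window can be looked up only by its predicted fold, since the table lists normalized reads per RNA structure and not per sequence, so a value belongs to all synthetic RNAs of that fold and not to the genomic sequence. The input libraries of reactions 11 and 12 held 20454155 and 18106812 reads on the listed structures, as recovered from the normalized values, and the m6A-IP libraries 22118610 and 1154715, so the second m6A-IP library is the least precise. The 62 windows folded into 37 structures, and 32 of these, with 55 windows, were among the 36835 structures listed. With limma and a Benjamini-Hochberg adjusted p under 0.1 over all structures, 2 of the 32 were higher in m6A-IP than in input and 16 were lower, where 12.5% of all structures were higher and 27.2% lower. The log2 ratio, m6A-IP over input, had a median of -0.57 in the 32 and of -0.27 in all structures, and values are to be read against the latter. When the libraries were scaled by their totals, the median of all structures was -0.06, 47.6% of all calls were higher instead of 31.5%, and 5 of the 32 were higher. The counts rested on single libraries: without input 11 or input 12, 2 of the 32 were lower, and without m6A-IP 11 or m6A-IP 12, 27 and 25 were. Higher structures then numbered 0, 1, 4 and 5. Of the structures described next, Smyd4 exon 3 and Dot1l intron 15 kept their call without either input library, Setd2 intron 13 kept it without input 12, and the other called ones lost it without either.

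The highest ratio was that of the fold of Setd2 intron 13. Its values were 740 and 825 in the input libraries of reactions 11 and 12 and 2024 and 1906 in the m6A-IP libraries, so the groups did not overlap. The log2 ratio was 1.32 ± 0.15 (SE, n = 2 and 2 libraries, limma adjusted p = 0.0137), higher than in 97.2% of all structures. Without input 11 it was 1.25 and missed the threshold (limma adjusted p = 0.110). The adenosine that METTL16 methylates lies here just before a stem, outside it. The other higher fold was shared by Smyd3 intron 8 and Setd3 intron 6 (chr12:108145140-108145169), with the adenosine paired. It had 81.4 and 73.1 in input and 113 and 125 in m6A-IP, a log2 ratio of 0.59 ± 0.18 (limma adjusted p = 0.0588, and 0.434 and 0.565 without input 11 and input 12). The fold of Ehmt1 intron 4, again with the adenosine outside a stem, stood at 20930 and 20704 in input and 35143 and 27086 in m6A-IP and missed the threshold (log2 ratio 0.57 ± 0.23, limma adjusted p = 0.117).

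Among the windows of mature transcripts, 3 folds were lower in m6A-IP. The fold of the coding window of Smyd4 exon 3, a hairpin with the adenosine in its loop, had 227 and 222 in input and 79.9 and 76.2 in m6A-IP, the lowest ratio of the 32 (log2 ratio -1.46 ± 0.16, limma adjusted p = 0.0137). The fold of Smyd4 exon 11, which a window of Kmt2b intron 27 shares, had 485 and 480 against 282 and 284 (log2 ratio -0.76 ± 0.15, limma adjusted p = 0.0223). The fold of Kmt2c exon 20, in which the adenosine is paired, had 45.1 and 37.4 against 19.7 and 13.9 (log2 ratio -1.09 ± 0.29, limma adjusted p = 0.0422). In m6A-IP 12 a single read is worth 6.93, so the value of 13.9 rests on very few reads. The filter on low structures left this fold out. The window of Setd7 exon 8 was predicted to have no pair at all, a state it shared with 6 other windows, and these unpaired RNAs had 1341250 and 1329810 against 1269070 and 988861 (log2 ratio -0.25 ± 0.53, limma adjusted p = 0.736), within 1 SE of the median of all structures.

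The fold of the commonest window, a hairpin with a loop that holds the whole nonamer, was shared by 15 windows in 11 members. It had 331 and 383 in input and 263 and 236 in m6A-IP. The log2 ratio was -0.51 ± 0.17 (limma adjusted p = 0.0701), and the call was lost with the reaction as a replicate block (adjusted p = 0.112) and with library totals (adjusted p = 0.118). A lower ratio was found in 37.7% of all structures, so this fold lay within the common range. Dot1l intron 15, with a longer predicted stem, had 133 and 161 against 62.9 and 41.6 (log2 ratio -1.43 ± 0.25, limma adjusted p = 0.0182). Prdm2 intron 2 (chr4:143189709-143189738), which differs from the commonest window at 1 base, had 3325 and 3385 against 1644 and 1282 (log2 ratio -1.21 ± 0.18, limma adjusted p = 0.0148). Windows that differ at 1 base thus fell into folds with different values. Ezh2 intron 6, with the adenosine paired, was also lower (20596 and 20230 against 14233 and 10528, limma adjusted p = 0.0608) and lost the call with the replicate block (adjusted p = 0.131).

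Sorted by the state of the methylated adenosine, 18 of the 32 structures had it in a hairpin loop, of which 12 were lower and none was higher (median log2 ratio -0.71). Over all 23885 such structures, 34.7% were lower and 7.52% higher, with a median of -0.45. In 4 structures it lay outside every stem, of which 1 was higher and none lower, and in 10 it was paired, of which 1 was higher and 4 lower. Over all structures, those with the adenosine outside every stem were higher in 50.7% and lower in 0.547%, and those with it paired were higher in 17.1% and lower in 16.1%. No 30-base window of the members put the adenosine in a bulge or an interior loop, states that held 515 and 934 of all structures. Of the bulge structures 44.7% were higher and 4.08% lower, and of those with an interior loop 21.7% and 8.67%. With 20 more bases on each side, the adenosine was in a hairpin loop in 20 of the 62 windows instead of 38, in a bulge in 1 (Setd2 intron 5) and in an interior loop in 3 (Kmt2e intron 1, Setdb1 intron 8 and Setd7 exon 8), so the state in a 30-base window is not that in the longer transcript for many of them.

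**Figure D5:**
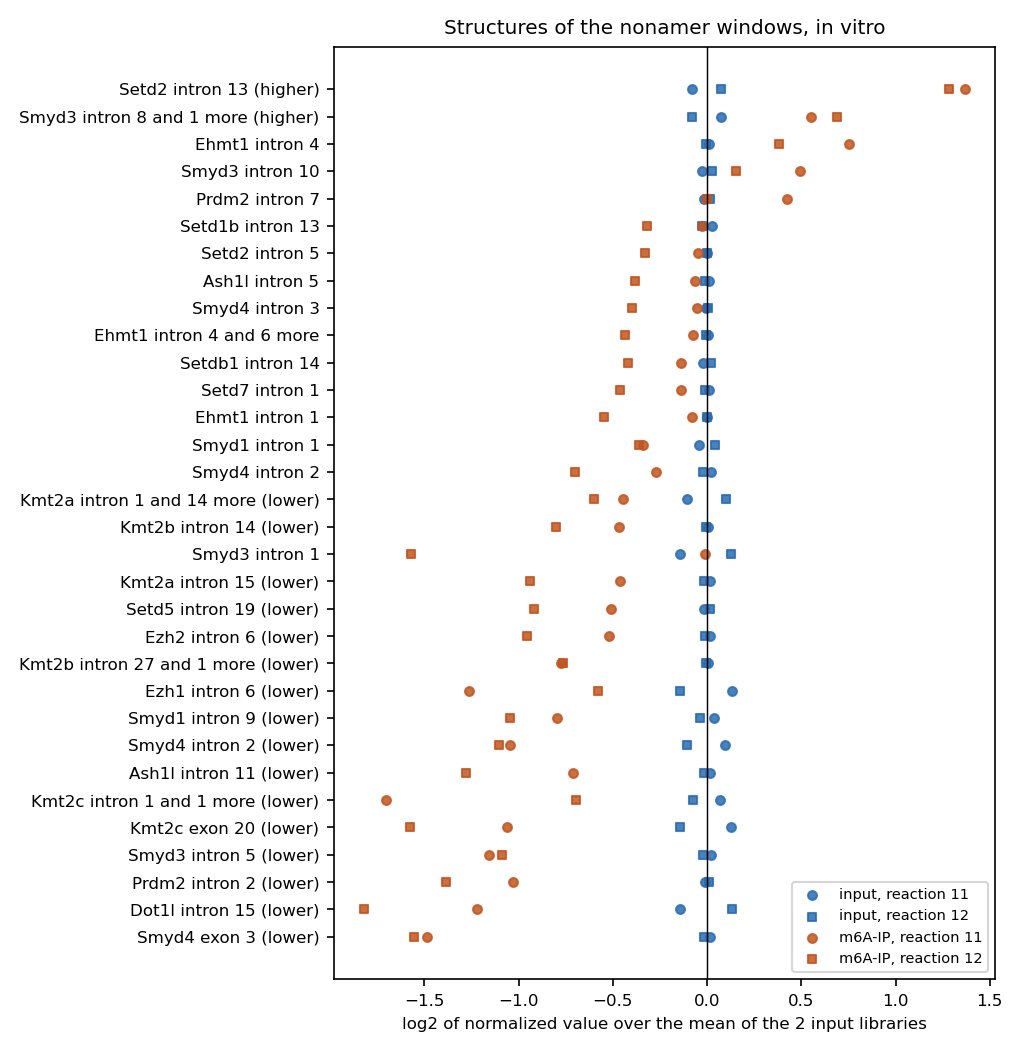
Values of the 32 listed structures of the members' nonamer windows in each of the 4 in vitro libraries, as log2 of the normalized value over the mean of both input libraries; rows are named by the first gene and feature with that structure and give how many more windows share it, and the words in brackets mark calls at a limma adjusted p under 0.1. Setd2 intron 13 (fitted log2 ratio 1.32) lies farthest to the right, and Smyd4 exon 3 (-1.46) and Dot1l intron 15 (-1.43) lie well to the left of 0.

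The genes that act with the members were given by fixed lists. Their counts are to be read against the 35.3% of 14120 genes that were at least 2-fold higher at E3.5 and the 19.5% at least 2-fold lower. Of 12 subunits of the H3K4 complexes (COMPASS), 1 was at least 2-fold higher and 1 at least 2-fold lower at E3.5 as a share of the total. Wdr5, the subunit that presents the H3 tail, had the most transcript per kilobase at E2.5 (3684, and 1658 at E3.5), a share 0.391 times as large, and Dpy30 had 2267 and 5189 per kilobase. Of 10 genes of Polycomb repressive complex 2 other than Ezh1 and Ezh2, 3 were higher and 2 lower. Rbbp7, a histone-binding subunit, had 6448 and 4753 per kilobase and Mtf2, which guides the complex to DNA, 2619 and 4275. Phf19, a relative of Mtf2, had means of 0.835 and 56.0. Of 8 partners of H3K9 methylation 2 were higher and 1 lower. Cbx1, which binds methylated H3K9, was 1 of the higher ones, with 347 and 2087 per kilobase. Trim28, the partner of SETDB1 (3849 and 5109), and Wiz, a partner of EHMT1 and EHMT2 (72.2 and 71.1), lay inside the 2-fold limit. Of 9 other lysine methyltransferases, of which 7 had a mean of at least 10, 2 were higher and none lower, and Kmt5a, the H4K20 monomethyltransferase, was the highest with 788 and 891 per kilobase. Of 20 histone lysine demethylases, which remove these marks, 5 were higher and 5 lower; Kdm5b, which acts on H3K4, had 936 and 573 per kilobase and Kdm1a 356 and 888.

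Of 6 enzymes that make SAM or clear its product, 5 had a mean of at least 10, of which 3 were higher and 2 lower at E3.5. Of all such genes 35.3% were higher and 19.5% lower. Mat2a, which makes SAM in the embryo, had a mean of 29053 at E2.5 and 4664 at E3.5, a share 0.139 times as large. Ahcy, which removes the S-adenosylhomocysteine left by each methyl transfer, was at 1376 and 5593, a share 3.53 times as large. Both means pool all genotypes, and Mat2a is a target of the gene that was removed, so stage and genotype mixture cannot be told apart here either.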

How the data were processed

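Single embryos were sequenced with Smart-seq2, and the in vitro libraries were made from an RNA pool methylated by METTL16. Embryos fall into 6 groups by stage and genotype, and the in vitro libraries into input and m6A-IP, with 2 each. The authors deposited, per gene and per exon or intron, the mean over all embryos of a stage of counts divided by DESeq2 size factors, a signal without depth or spread. Genes were quantified with Salmon 0.7.2, and exons and introns were counted with featureCounts on mm10 alignments made with STAR, introns being shortened by 10 bases at each end. Smart-seq2 libraries do not mark the strand. The submitters' processing notes also name cutadapt 1.9.1, DESeq2 1.18.1 and R 3.4.3. Other columns of these tables hold the authors' log2 fold changes and p-values between genotypes and were not used. The in vitro table as deposited holds, per predicted RNA structure, a signal of reads divided by a size factor of the library. Dividing by the value of 1 read gave whole numbers within 0.05 for at least 99.98% of values, which gave the reads per library on the listed structures. Reads outside them are not counted.

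Levels were expressed in ppm of the table's total and per kilobase of merged exons. Stages were compared for genes with a mean of at least 10 at either stage, without a test, and a 2-fold difference was counted. Nonamer windows of 30 bases were read from the GRCm38 sequence with pysam 0.24.0 and folded with RNAfold 2.7.2. Their structures were looked up in the in vitro table, where m6A-IP was compared with input over all 36835 structures with limma 3.58.1 (R 4.3.3) on log2(value + 5), with a trend and Benjamini-Hochberg adjustment at a threshold of 0.1. A fold change on this scale understates that of low structures. Reactions 11 and 12 were duplicates with the same enzyme and RNA pool, so p-values measure the spread between duplicate reactions. Input and m6A-IP of a reaction are parts of the same reaction by the study's description, and the deviations of same-numbered libraries correlated with r = 0.0151 over all structures. All other steps used Python 3.11.15 with pandas 2.3.3, numpy 2.4.6 and matplotlib 3.10.9.

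The 32 members, the lists of other genes and the tests were chosen with earlier results of these data known. All members are named. Genes outside the list are named from fixed lists only, at most the 3 highest and 3 lowest per kilobase, besides overlapping genes. The 3 introns of highest density, all windows in mature transcripts and listed intronic windows could be named. Alternatives were the pseudocount, library totals, a filter on low structures, the replicate block, leaving out each library, summed exon means, scaling to the median gene and a longer window.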

Additional observations from a re-analysis of the deposited data

How the results depend on the processing

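Summed exon means in place of gene means moved the median member at E2.5 from 107 to 161 per kilobase and took Setdb2 (0.58) out of the lower members. Among genes with a mean of at least 10, 21 and 24 members lay above the median gene instead of 29 and 31. An intron minimum of 1 gave 13 introns instead of 9. Scaling to the median gene gave 5 lower members instead of 3. With library totals, 5 structures were higher in m6A-IP instead of 2. Leaving out 1 library gave 0 to 5 higher structures (2 with all) and 2 to 27 lower ones (16 with all). A lone library is then assumed to vary like the other group, so without an m6A-IP library the spread comes from the input libraries. The replicate block gave 2 higher and 14 lower structures, losing the calls of Ezh2 intron 6 and of the commonest window and no other. Hairpin-loop windows numbered 20 with the longer window instead of 38. No direction reversed among the called values. A count test on the in vitro reads was not run. The cause of these differences was not tested. The 1154715 reads of m6A-IP 12 limit low structures, and the embryo means have no depth or error.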

Other observations

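Mat2a, whose product makes the methyl donor of active methyltransferases, held the nonamer in 5 windows, all in its exon 9. The structures of 3 of them were lower in m6A-IP than in input in vitro with limma at an adjusted p under 0.1, and the log2 ratios ran from -1.72 to -0.22. The paper reports that METTL16 did methylate hairpin RNAs of human MAT2A in vitro. The Mat2a window with flanks most like those of these RNAs is chr6:72434235-72434264, minus strand. Its structure was not called (log2 ratio -0.30 ± 0.19, limma adjusted p = 0.277). The 3 lower structures belong to other windows. Each value belongs to all synthetic RNAs of a fold. A lower value therefore does not show whether a given sequence with that fold is left unmethylated. The windows of Mat2a put the adenosine in a hairpin loop, as did 38 of the 62 windows of the members.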
